A study of Mus musculus with 4 samples.

Results

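The basement membrane genes described here are 32 genes for laminin chains, nidogens, heparan sulphate proteoglycans, type IV, XV and XVIII collagens and proteins that join them to each other or to cells. They were chosen by symbol out of 18193 genes that have a probe set of their own, and every probe set annotated to such a symbol was taken, 63 of 45037 on the array. Cyc mice overexpress CyclinT1 and Gαq under the α-MHC promoter of cardiomyocytes and develop heart failure, while their Wt littermates carry neither transgene. All mice were of the FVB strain, 6 weeks old and of either sex. Cells with Sca-1, a marker of resident cardiac progenitors, were isolated magnetically and never cultured. There were 2 Cyc and 2 Wt pools, each from 2 to 3 hearts, and every pool was read on its own Affymetrix array.

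A basement membrane is a thin sheet of matrix that lies under epithelium and endothelium and around muscle, nerve and fat cells. Its laminins are trimers of an alpha, a beta and a gamma chain that form a network at the cell surface. Type IV collagen forms a further network of its own, and nidogens and the heparan sulphate proteoglycan perlecan tie both networks together. In the heart such sheets surround capillaries, pericytes and cardiomyocytes, and collagens XV and XVIII lie at their outer face.

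Levels are linear normalized intensities, and those under 50 count as near background or, below 0, as under it. Array medians over tested probe sets ran from 197.6 to 280.5, and having 4 arrays limits the precision. The spiked poly-A controls were bright on both arrays numbered 1 (medians 258.8 for Cyc and 231.9 for Wt) and near 0 on both numbered 2 (-0.9 for Cyc and 0.3 for Wt). Arrays of like number were thus treated as experiments 1 and 2, and differences are shown inside each and, where it matters, with the experiment as a block. Of 7 Gnaq (Gαq) probe sets in the annotation used here, 1 passed the thresholds given below. This probe set was at 723.6 and 492.3 in the Cyc pools and near background in the Wt pools (22.7 and 4.1). It reached 50 in the Cyc pools only and so entered the test through the group where it was high. None of the other Gnaq probe sets passed, nor did either of the 2 for Ccnt1 (CyclinT1), with log2 fold changes of -0.24 and -0.48. The endothelial markers were all read on all 4 arrays, with summed intensities of 45560 and 48999 in Cyc, against 50203 and 52486 in Wt pools, as were the 10 fibroblast markers, with sums of 59247 and 57340 in Cyc, against 61304 and 40140 in Wt pools. The Sca-1 transcript was not analysed here. The limma p-values rest on the spread among these pools, both of the probe set itself and of all tested probe sets together. Each pool stands for a few mice.

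Of the 32 genes, 25 had an intensity of 50 or more in all 4 pools at their brightest probe set, and Col18a1 was the member that rose in Cyc cells. A call needed a 2-fold difference together with p under 0.05 before adjustment (limma), over probe sets that reached 50 on 2 or more arrays. Of the 26 members tested at their brightest probe set, 1 rose, 0 fell and the other 25 missed the thresholds. The 6 members not tested were Lama1, Lamb3, Lamc3, Col4a3, Col4a6 and Egflam, and of the 63 probe sets 18 were not tested. Over all 10312 genes tested this way, 0.921% were higher and 0.126% lower. By p alone there were 2 members under 0.05, Col18a1 and Col15a1, both higher in Cyc, against 2.3% of all genes. With the experiment as a block 4 members were under 0.05, Fbln1 and Col4a4 being the others, against 6.46% of all genes. Every adjusted p was 1 without the block, and the smallest of a member with it was 0.297 (limma, Benjamini-Hochberg), so no member passed correction for multiple tests in either fit.

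The median log2 fold change of the 26 members was 0.16, against 0.02 over all tested genes. Within experiment 1 it was 0.15, against -0.04 over all genes, and within experiment 2 it was 0.23, against 0.07. In 11 members the Cyc and Wt intensities did not overlap and Cyc was the higher, which held for 18.5% of all genes. These were Lama4, Lamb1, Col4a1, Col4a2, Col4a5, Col15a1, Col18a1, Pxdn, Ntn4, Fbln1 and Fbln2. For 2 members, Dag1 and Bcam, Cyc was the lower without overlap, against 7.49% of all genes. Cyc exceeded Wt inside each experiment for 15 members, against 30.8% of all genes, and was below it in each for 4, against 25.6%. As the array holds RNA of all sorted cells, fewer cells of a type and less RNA per cell cannot be told apart.

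**Figure D1:**
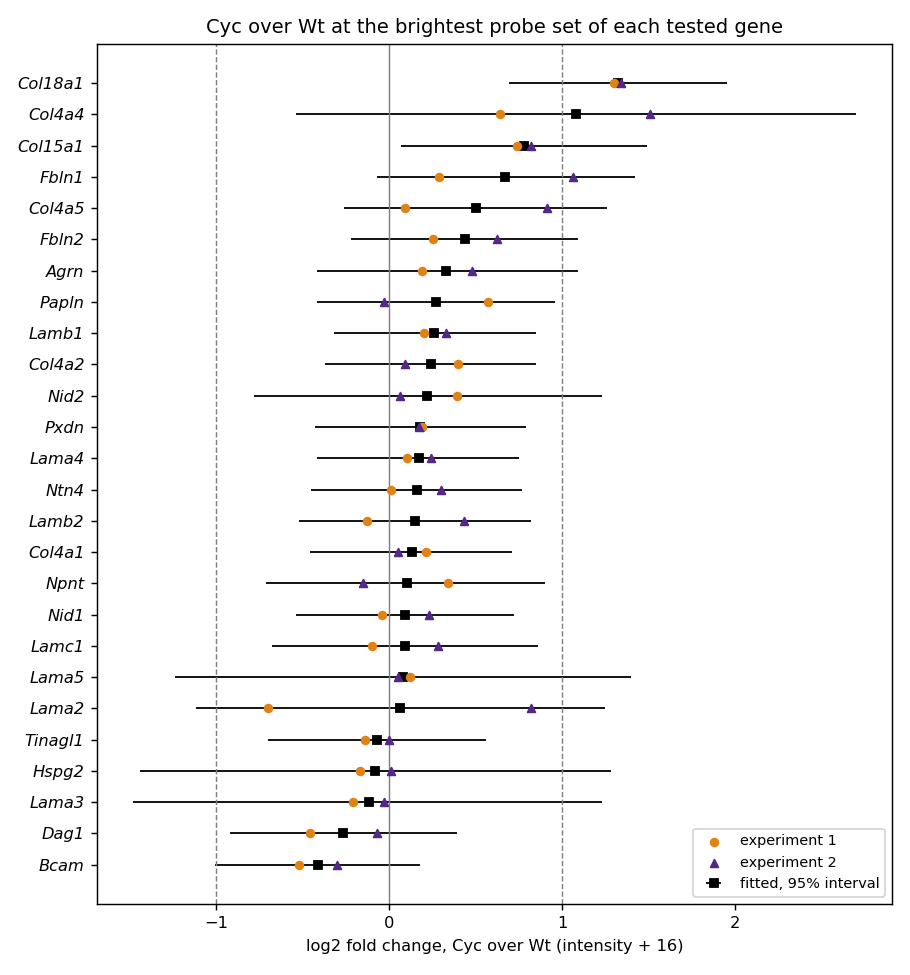
Log2 fold change of Cyc over Wt (16 added to each intensity) for the 26 tested basement membrane genes at their brightest probe set, with the fitted value and its 95% confidence interval (limma, n = 2 pools each) in black and the differences within experiments 1 and 2 in colour; dashed lines mark 2-fold. Col18a1 has both experiments past 2-fold, at 1.30 and 1.34, while Lama2 has values of opposite sign, at -0.70 and 0.82.

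Collagen XVIII is a heparan sulphate collagen of vascular and epithelial basement membranes, and its C-terminal fragment is endostatin. Its gene Col18a1 was read at 1662.7 and 1937.7 in the Cyc pools, against 664.6 and 755.8 in the Wt pools. The groups did not overlap, and every Cyc pool was more than 2-fold brighter than either Wt pool. The mean was 1800.2 ± 194.4 in Cyc and 710.2 ± 64.5 in Wt cells (SD, n = 2 pools each). On the log2 scale Cyc exceeded Wt by 1.32 ± 0.24 (standard error), with a 95% interval from 0.69 to 1.95 (limma, unadjusted p = 0.00326, adjusted p = 1). The Cyc pool was 2.5-fold brighter in experiment 1 and 2.56-fold in experiment 2. A further probe set had 693.3 and 785.1 in Cyc, against 231.4 and 279.7 in Wt pools, with a log2 fold change of 1.48 (standard error 0.24, unadjusted p = 0.00216, limma). So both probe sets of this gene passed the thresholds, and they were the only 2 of the 45 tested probe sets of the group to do so, against 0.735% of all probe sets called higher. With the experiment as a block the adjusted p-values were 0.381 and 0.297. By unadjusted p Col18a1 ranked 16 among the 10312 genes and by fold change 65.

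Col18a1 is transcribed from 2 start sites, shown here because the gene carries the clearest difference of the group. In RefSeq (GRCm38.p6) they lie 52825 bases apart, and the array does not tell which of them was used. In mouse the upstream site gives the short form found in most vascular basement membranes, and the downstream site gives longer forms known from liver. Both windows run from 250 bases before to 50 bases after the start, and capitals mark matches to the GC box GGGCGG on either strand.
Col18a1 upstream start (chr10:77166481-77166780, minus strand): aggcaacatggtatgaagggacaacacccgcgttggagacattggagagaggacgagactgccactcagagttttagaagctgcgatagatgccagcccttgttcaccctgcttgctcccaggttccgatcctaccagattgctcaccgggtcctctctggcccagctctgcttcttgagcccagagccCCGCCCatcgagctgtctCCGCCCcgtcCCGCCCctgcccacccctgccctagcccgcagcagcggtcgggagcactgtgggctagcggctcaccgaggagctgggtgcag
Col18a1 downstream start (chr10:77113656-77113955, minus strand): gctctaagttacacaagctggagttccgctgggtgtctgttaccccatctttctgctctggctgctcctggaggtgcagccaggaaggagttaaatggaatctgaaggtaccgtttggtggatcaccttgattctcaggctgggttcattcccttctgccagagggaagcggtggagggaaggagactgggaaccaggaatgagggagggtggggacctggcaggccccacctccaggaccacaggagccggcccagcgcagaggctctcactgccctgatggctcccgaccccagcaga
The upstream window holds 3 matches and the downstream window holds none, while 35.7% of the 32851 promoter windows of the table hold at least 1. A match is a sequence description only.

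Col15a1, the gene of collagen XV, which is closely related to collagen XVIII and lies next to basement membranes of capillaries and muscle, was read at 724.3 and 943.7 in Cyc, against 427.2 and 528.4 in Wt pools. All Cyc values lay above all Wt values. The mean was 834.0 ± 155.2 in Cyc and 477.8 ± 71.6 in Wt cells (SD, n = 2 pools each). Its difference on the log2 scale, 0.78 (standard error 0.27, 95% confidence interval from 0.07 to 1.49, limma, unadjusted p = 0.0371) passed the p but missed 2-fold. The differences in the experiments were alike, at 0.74 and 0.82.

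Col4a1 and Col4a2 encode the chains of the common type IV collagen, which is found in basement membranes of all tissues. For Col4a1 the brightest probe set gave 11126.6 and 10553.6 in Cyc, against 9650.6 and 10179.8 in Wt pools. Col4a2 had 9305.9 and 8384.4 in Cyc and 7066.3 and 7900.4 in Wt pools. For both genes the Cyc pools lay above the Wt pools by a small margin. The log2 fold changes were 0.13 for Col4a1 (95% confidence interval from -0.46 to 0.71) and 0.24 for Col4a2 (from -0.37 to 0.85), so changes of 2-fold lie outside these intervals (limma). The other Col4a1 probe set showed a log2 difference of 0.33 (standard error 0.22).

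Both genes are neighbours that are read in opposite directions from a shared region, shown here because they were read together in every pool. Their RefSeq windows overlap by 78 bases, which are in capitals and are the same bases on opposite strands.
Col4a1 (chr8:11312777-11313076, minus strand): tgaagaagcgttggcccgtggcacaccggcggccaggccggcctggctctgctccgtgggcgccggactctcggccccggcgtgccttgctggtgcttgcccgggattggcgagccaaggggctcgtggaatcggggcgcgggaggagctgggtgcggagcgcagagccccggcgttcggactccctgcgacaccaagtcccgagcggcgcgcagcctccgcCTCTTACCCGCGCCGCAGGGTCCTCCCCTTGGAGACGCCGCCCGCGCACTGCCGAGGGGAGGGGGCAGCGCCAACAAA
Col4a2 (chr8:11312555-11312854, plus strand): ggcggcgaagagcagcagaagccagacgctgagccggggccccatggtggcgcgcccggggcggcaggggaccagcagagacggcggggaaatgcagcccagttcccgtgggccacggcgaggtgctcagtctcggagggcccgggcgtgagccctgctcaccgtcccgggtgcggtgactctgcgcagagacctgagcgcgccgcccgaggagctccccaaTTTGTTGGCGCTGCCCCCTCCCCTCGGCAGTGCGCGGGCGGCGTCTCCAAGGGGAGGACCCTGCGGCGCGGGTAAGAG
GC makes up 74% of the Col4a1 window and 73.7% of the Col4a2 window, and neither holds the TATA motif TATAAA on either strand, which 13.6% of all windows hold.

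The other type IV chains belong to more specialised basement membranes. Col4a5, known with Col4a3 and Col4a4 from kidney glomeruli and lung, was read at 528.0 and 731.4 in Cyc, against 494.7 and 381.9 in Wt pools. Its log2 fold change was 0.50 at this probe set (standard error 0.29) and 0.50 at the other (standard error 0.23), where the Cyc pools were at 225.6 and 239.0 and the Wt pools at 168.6 and 150.5. The groups were apart at both probe sets, but neither passed the thresholds (limma, unadjusted p = 0.15 and 0.0817). Col4a4 had 126.9 and 418.4 in Cyc and 75.6 and 136.6 in Wt pools, so that the Cyc pool of experiment 2 stood far above the other 3. The log2 fold change of 1.08 had a 95% confidence interval from -0.54 to 2.70 and did not pass (limma, unadjusted p = 0.146).

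With the experiment as a block, Col4a4 passed the thresholds (limma, unadjusted p = 0.00815, adjusted p = 0.663), which made 2 members higher, against 1.14% of all genes in that fit. It also passed without the block when arrays were scaled to equal medians (limma, unadjusted p = 0.0335, adjusted p = 1) or to equal quantiles (limma, unadjusted p = 0.0404, adjusted p = 1). The differences in experiments 1 and 2 were 0.64 and 1.51, and the fold change was 0.27 on the log2 scale when the Cyc pool of experiment 2 was left out and 1.88, past the thresholds, when that of experiment 1 was. The other tested probe set of Col4a4 gave 120.1 and 313.1 in Cyc and 80.9 and 140.3 in Wt pools, the same order of pools. Its log2 fold change of 0.78 (standard error 0.52) missed 2-fold, also with the block. The same held with arrays scaled to equal medians (0.80) or quantiles (0.82). Col4a3, its neighbour in the genome, reached 50 in the Cyc pool of experiment 2 alone, at 72.7, where experiment 1 gave 12.9 for Cyc, and the Wt pools were at 17.8 and 21.0. Col4a6, a chain of smooth muscle basement membranes, stayed at 45.4 or less.

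These chains are also known from alveoli of the lung. The 10 airway and alveolar markers summed to 425 and 16816 in Cyc and to 2867 and 250 in Wt pools. Most of the largest sum came from the airway genes Scgb1a1 and Scgb3a2, at 10194.7 and 5569.1 in the Cyc pool of experiment 2. Scgb1a1 was also read at 1783.7 in the Wt pool of experiment 1, where Col4a4 was lowest. The surfactant gene Sftpc had 164.5 in the Cyc pool of experiment 2 and 8.0 or less in the other 3 pools. Sftpb, a further surfactant gene, had 73.4 and 128.4 in Cyc and 65.3 and 69.2 in Wt pools, and Cldn18 stayed at 16.7 or less. Mesothelial markers summed to 611 and 2262 in Cyc and to 1245 and 682 in Wt pools, and leukocyte markers to 442 and 1449 in Cyc and to 434 and 325 in Wt pools. Mural cell markers summed to 13016 and 24452 in Cyc and to 10853 and 15040 in Wt pools, the same order of pools as Col4a4. The part of these cells in the values of Col4a3 and Col4a4 was not tested.

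**Figure D2:**
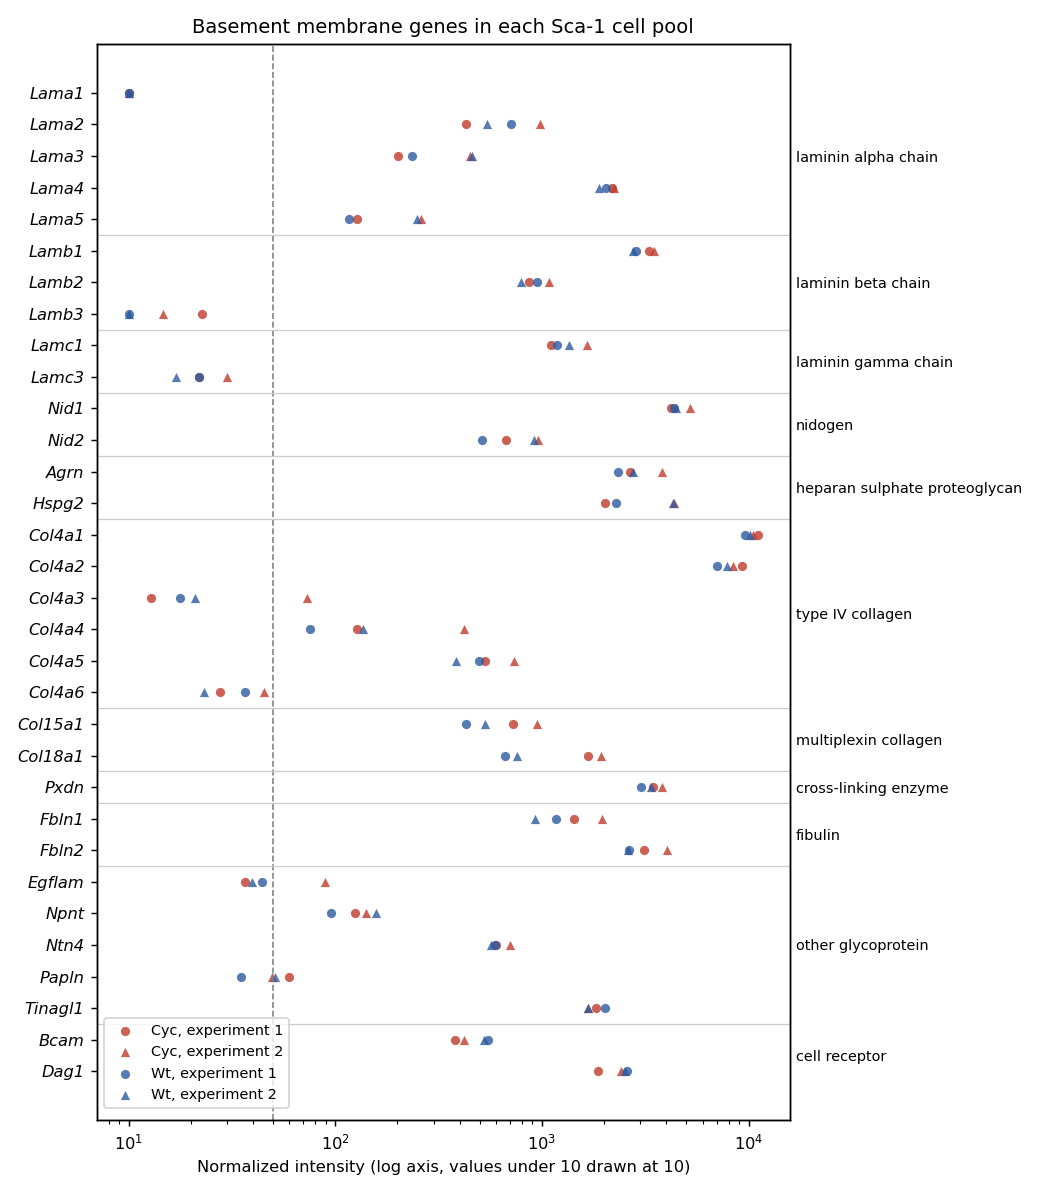
Normalized intensity (log axis, values under 10 drawn at 10) of the 32 basement membrane genes at their brightest probe set, ordered by role, Cyc red and Wt blue, with experiment 1 as circles and experiment 2 as triangles; the dashed line marks 50. Lama1, Lamb3, Lamc3 and Col4a6 lie left of the line in all 4 pools, and Col4a3 and Egflam lie right of it in the Cyc pool of experiment 2 alone.

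Among the laminin alpha chains, at their brightest probe sets, Lama2, Lama3, Lama4 and Lama5 were read above 50 in every pool and Lama1 in none. Lama4, the chain of capillary endothelium, was read at 2179.3 and 2231.4 in Cyc, against 2036.7 and 1893.4 in Wt pools. Its Cyc pools were above its Wt pools, but the difference was small, with a log2 fold change of 0.17 and a 95% confidence interval from -0.42 to 0.75 (limma), and its dimmer probe set had -0.07. Lama2, the chain around muscle and Schwann cells, had 430.6 and 976.3 in Cyc and 707.8 and 545.1 in Wt pools. Here the sign depended on the experiment, with -0.70 in experiment 1 and 0.82 in experiment 2, and without the Cyc pool of experiment 1 or 2 the log2 fold change was 0.64 or -0.51.

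Lama5, a chain of epithelium and of mature vessels, had 127.2 and 259.5 in Cyc and 115.9 and 250.0 in Wt pools, with a log2 fold change of 0.08 (standard error 0.50). The pools were close within each experiment and apart between experiments. A further Lama5 probe set read -63.0 in the Cyc pool of experiment 1, where experiment 2 gave 285.7 for Cyc and the Wt pools had 136.2 and 326.1. Its log2 fold change of -1.72 had a standard error of 1.45. That value rests on the pool below 0, and without this pool it was 0.40. The dimmest Lama5 probe set stayed at 18.7 or less in all pools. Lama3, a chain of the laminin that anchors stratified epithelium, had 201.5 and 449.0 in Cyc and 236.1 and 460.4 in Wt pools, with a log2 fold change of -0.12 (standard error 0.52). The other Lama3 probe set stayed at 2.9 or less in all pools. Lamb3, the beta partner of Lama3, stayed at 22.7 or less in all pools. Lama1, a chain of the embryonic basement membrane, was at 3.3 or less.

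Lamb1 is the beta chain of most vascular laminins. It was read at 3293.5 and 3470.7 in Cyc, against 2867.9 and 2766.2 in Wt pools at its brightest probe set, a log2 fold change of 0.26 (standard error 0.22). At another bright probe set the Cyc pools were at 2057.4 and 2703.4 and the Wt pools at 1378.4 and 1577.0, a log2 fold change of 0.67 (standard error 0.26, limma, unadjusted p = 0.0537). The groups were apart at both of them. A further tested probe set had 329.7 and 289.8 in Cyc and 325.9 and 134.0 in Wt pools and overlapped. Lamb2, the beta chain of vessel walls and synapses, showed a log2 difference of 0.15, with -0.13 and 0.43 in the experiments. Lamc1, the gamma chain of nearly all laminins, had 1109.2 and 1649.2 in Cyc and 1189.4 and 1351.4 in Wt pools, a log2 fold change of 0.09 and a 95% confidence interval from -0.68 to 0.86 (limma). Lamc3, a rarer gamma chain, stayed at 34.5 or less at both of its probe sets.

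The linkers Nid1 and Nid2 join laminin to type IV collagen. Nid1 had 4232.8 and 5212.2 in Cyc and 4366.2 and 4448.7 in Wt pools, a log2 fold change of 0.09 and a 95% confidence interval from -0.54 to 0.72 (limma). Nid2 had 673.1 and 957.2 in Cyc and 511.4 and 916.2 in Wt pools, with a log2 fold change of 0.22 (standard error 0.38). In both genes Cyc and Wt overlapped, and both pools of experiment 2 lay above both pools of experiment 1. The dimmer tested probe sets of Nid1 had values of -0.15 and -0.40, opposite in sign to the brightest.

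Hspg2 encodes perlecan, which binds growth factors through its heparan sulphate chains. Its pools of experiment 2 were at 4356.4 in Cyc and 4318.7 in Wt, and those of experiment 1 at 2017.8 in Cyc and 2276.4 in Wt. The genotypes were thus close within each experiment, at log2 differences of -0.17 and 0.01, while experiment 2 exceeded experiment 1 by 1.01 on the log2 scale. At its dimmer probe set this excess was 0.36, and the genotypes differed by 0.02. Agrn, the gene of agrin, which clusters receptors at synapses and binds dystroglycan, had 2664.6 and 3825.9 in Cyc and 2336.1 and 2747.8 in Wt pools. The log2 fold change was 0.33 (standard error 0.29), and Cyc exceeded Wt inside each experiment.

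Experiment 2 lay above experiment 1 in other members too, but in a smaller share of them than of all genes. In 9 of the 26 members both pools of experiment 2 lay above both pools of experiment 1, against 48.9% of all genes, and in 1, Tinagl1, both lay below, against 8.85%. The median log2 difference between experiments was 0.17 over the 26 members and 0.23 over all genes. Lama3, Lama5, Hspg2 and Col4a4 differed by 0.9 or more. The ratio of 3' to 5' control probe sets of Actb was 1.43 and 1.61 in Cyc and 1.27 and 1.76 in Wt pools, higher in experiment 2. The part of RNA quality in these differences was not tested.

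**Figure D3:**
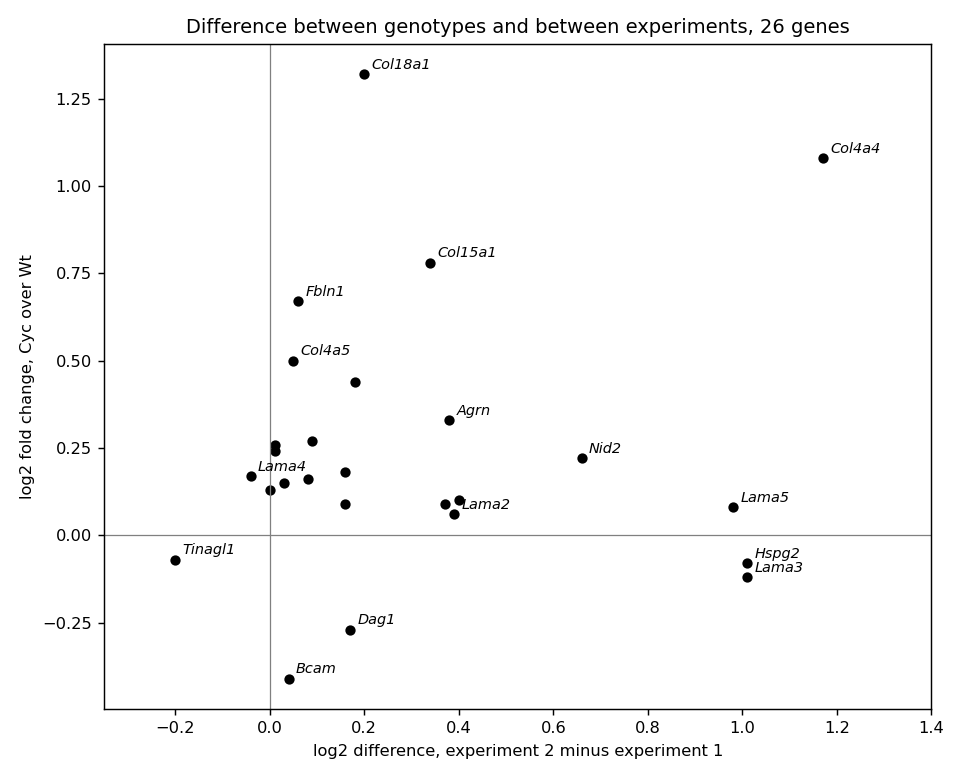
Log2 fold change of Cyc over Wt (vertical axis) against the log2 difference of experiment 2 minus experiment 1 (horizontal axis) for the 26 tested basement membrane genes, 1 point per gene at its brightest probe set. Col18a1 lies at 1.32 between genotypes and 0.20 between experiments, while Hspg2 lies at -0.08 and 1.01 and Col4a4 is high on both axes.

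Pxdn encodes peroxidasin, the enzyme that cross-links type IV collagen. It was read at 3435.3 and 3801.0 in Cyc, against 3002.1 and 3383.5 in Wt pools, narrowly apart, with a log2 fold change of 0.18 (95% confidence interval from -0.43 to 0.79, limma). Fbln1, a fibulin of vessel walls, had 1431.8 and 1953.9 in Cyc and 1169.9 and 929.9 in Wt pools. Its log2 fold change was 0.67 (standard error 0.28, limma, unadjusted p = 0.0677), with 0.29 and 1.06 in the experiments, and 0.61 at the other tested probe set (standard error 0.38). Fbln2, a fibulin that binds nidogen and perlecan, had 3121.9 and 4037.0 in Cyc and 2627.7 and 2613.1 in Wt pools, a log2 fold change of 0.44 (standard error 0.25). At these brightest probe sets both fibulins had higher intensities in both Cyc pools than in either Wt pool, and neither passed the thresholds. A dim probe set of Fbln2 had 14.3 and 78.8 in Cyc and 38.2 and 51.6 in Wt pools, which overlapped, with a value of -0.18 (standard error 0.59), opposite in sign.

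Other glycoproteins were close between the genotypes. Ntn4, a netrin that binds laminin, had 598.3 and 700.1 in Cyc and 592.4 and 565.6 in Wt pools, a log2 fold change of 0.16 (standard error 0.23). Tinagl1, a matrix protein of vessels, had -0.07, Npnt, an integrin ligand known from kidney development, 0.10, and Papln, a papilin that lay near background at 59.8 or less, 0.27. Egflam, a dystroglycan ligand known from retina, reached 50 in the Cyc pool of experiment 2 alone, at 89.3. Its intensity was 36.7 in Cyc cells of experiment 1, and 44.1 and 39.4 in Wt cells, so it was not tested.

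Both receptor genes among the members, Dag1 and Bcam, were dimmer in Cyc pools. This was not shared by the 13 tested receptors and adaptors described below. Their median log2 fold change was 0.08, and 4 had Cyc above Wt without overlap and 0 had Cyc below. Dag1, the gene of dystroglycan, which anchors laminin to the cell, was read at 1873.2 and 2415.0 in Cyc, against 2585.4 and 2537.9 in Wt pools. The log2 fold change was -0.27 (95% confidence interval from -0.92 to 0.39, limma), and its other 3 tested probe sets had values from -0.43 to -0.25. In each experiment and at each of these 4 probe sets the Cyc pool was the dimmer. Bcam, a receptor of the laminin chain Lama5, had 379.0 and 420.5 in Cyc and 549.8 and 523.1 in Wt pools, a log2 fold change of -0.41 (95% confidence interval from -1.01 to 0.18, unadjusted p = 0.133). Neither gene passed the thresholds.

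**Figure D4:**
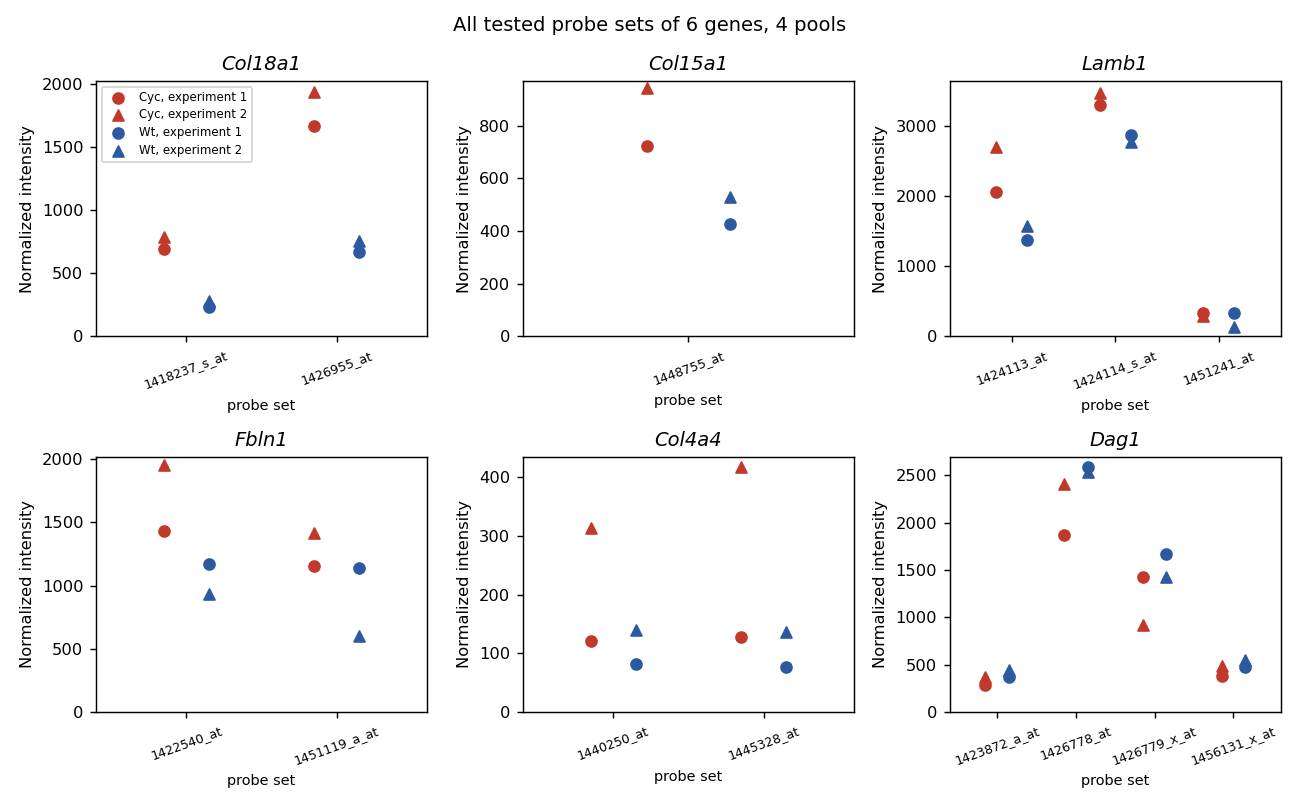
Normalized intensity (linear axis) of every tested probe set of 6 basement membrane genes, Cyc red on the left and Wt blue on the right of each position, with experiment 1 as circles and experiment 2 as triangles. Col18a1, Col15a1 and both bright Lamb1 probe sets have all Cyc points above all Wt points, Col4a4 has its Cyc pool of experiment 2 apart from the other 3 pools, and the Cyc points of Dag1 are lower within each experiment.

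Over all 45 tested probe sets, 16 had Cyc above Wt without overlap and 3 had Cyc below, against 15.1% and 8.23% of all probe sets. Cyc exceeded Wt inside each experiment at 24 and was below it in each at 9, against 26.1% and 29.1%. Experiment 2 lay above experiment 1 without overlap at 18 and below at 3, against 51.6% and 9.07%. By p alone 3 were under 0.05, both of Col18a1 and that of Col15a1, against 1.99%, and 8 were with the experiment as a block, against 6.98%. The block made 3 probe sets pass both thresholds, against 0.924% called higher, the brightest one of Col4a4 being the added one.

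Partners of the basement membrane were read from lists of genes. Of 13 tested receptors and adaptors none passed the thresholds, with a median log2 fold change of 0.08. The brightest were Rpsa, a laminin-binding ribosomal protein, at 0.06, Itga6, an integrin chain that binds laminin, at 0.03, and Utrn, a dystrophin relative, at -0.11. Among 13 tested makers and cross-linkers of collagen and heparan sulphate none passed, with a median of 0.12. Tgm2, a transglutaminase, had 0.17, Serpinh1, a collagen chaperone, 0.07, and P4hb, a subunit of the prolyl hydroxylase, 0.31.

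Of 10 tested proteases, heparan sulphatases and inhibitors none passed, with a median of 0.33. With the experiment as a block 2 were higher, Mmp3 and Adamts4 (limma, adjusted p = 0.699 and 0.664), against 1.14% of all genes in that fit. Mmp3, a stromelysin, had 59.8 and 120.8 in Cyc and 44.0 and 8.8 in Wt pools. Mmp3 reached 50 in the Cyc pools only, so it entered the test through the group where it was high. Adamts4, an aggrecanase, had 230.3 and 98.1 in Cyc and 65.9 and 64.3 in Wt pools. Adamts1, a protease of proteoglycans, showed a log2 difference of 0.12, and the inhibitors Timp3 and Timp2 had -0.30 and 0.19. Of 9 tested further basement membrane proteins none passed, with a median of 0.14. Sparc, a collagen-binding protein, was at 0.14, Ntn1, a netrin, at 0.17 and Ecm1, which binds perlecan, at 0.10.

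Some markers of other cells passed the thresholds, where 0.921% of all genes were higher and 0.126% lower. Of 8 mural cell markers, Kcnj8 and Abcc9, channel subunits of pericytes, were higher past the thresholds, and the other 6 did not pass. The intensities of all 8 summed to 13016 and 24452 in Cyc, against 10853 and 15040 in Wt pools. These sums overlapped across experiments, but Cyc was the higher inside each. Within experiments 1 and 2 the median log2 differences of the mural markers were 0.28 and 1.1. The fibroblast marker Col1a1 was the only 1 of 10 that passed, at 456.1 and 905.5 in Cyc and 321.3 and 242.5 in Wt pools, and of 10 endothelial markers none passed. Of 8 tested cardiomyocyte markers, Myl2 and Mb were lower and the other 6 did not pass. The intensities of this list summed to 2245 and 1456 in Cyc, against 3498 and 2039 in Wt pools. These sums overlapped across experiments too, but Cyc was the lower inside each. The median log2 differences of its tested markers were -0.74 and -0.55. Of the leukocyte list 1 of 4 tested genes, Itgb2, was higher, at 67.5 and 142.4 in Cyc and 34.0 and 29.4 in Wt pools. Itgb2 reached 50 in the Cyc pools only, so it entered the test through the group where it was high. None of the 6 tested airway and 6 tested mesothelial markers passed. The 5 Schwann cell markers on the array summed to 246 or less in each pool, and none could be tested. The part of these cells in the difference of Col18a1 was not tested.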

How the data were processed

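Freshly sorted Sca-1 cells of 2 Cyc and 2 Wt pools were profiled from 250 ng of RNA each on Affymetrix Mouse 430 2.0 arrays. The deposited values are normalized probe set intensities on a linear scale, which the authors made in Resolver 7.2. The background correction and summary method are not given in the sources used here, and neither is a genome build. Values below 0 were set to 0, 16 was added and log2 taken, without further normalization. Probe sets that reached 50 on 2 or more of the 4 arrays, 20680 in all, entered limma 3.58.1 under R 4.3.3 (2 residual and 2.68 prior degrees of freedom), two-sided, with Benjamini-Hochberg adjustment over all of them. The added 16 shrinks the fold changes of dim genes. The Resolver error model of the study was not run.

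Genes were named through the platform annotation: 34945 probe sets have 1 symbol, 932 several and 9160 none. All 63 probe sets of the members have 1 symbol, all 32 members matched RefSeq by Entrez ID, and 25 have a promoter window there. Each gene is given at its brightest probe set (mean of 4 arrays), every member is named, and of each list of partners the 3 brightest and those past the thresholds. Members and lists were chosen with earlier results of these data known, so lists are described by counts and medians without a test. Labels number the arrays of each genotype 1 and 2 and do not state what a number shares. The methods describe independent experiments, and array deviations from the genotype mean correlated at 0.447 within a number, so blocked values are given too. The procedure was run on simulated data with changes larger than that of Col18a1 and without an effect of the experiment. It therefore does not show how well changes of that size are found. Alternatives changed the pseudocount (1 or 50), the filter (none, or 100), the scaling (quantiles or equal medians), the variance model (replicate block, intensity trend, the unmoderated t-test of the study's general statistics, which is not its array test) the arrays (each left out) and the value per gene (any tested probe set, or the mean of all). The block with quantile normalization was chosen after seeing the data.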

Additional observations from a re-analysis of the deposited data

Results flagged for a closer look

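A few probe sets of the group were not tested, since they reached an intensity of 50 on 1 array only, and yet were read above 50 in the Cyc pool of experiment 2 while both Wt pools lay below 50. Both probe sets of Col4a3 did so, at 59.9 and 72.7. The dimmest probe set of Col4a4 did so at 57.6, and the probe set of Egflam at 89.3. In the Cyc pool of experiment 1 these 4 probe sets were at 36.7 or less. The part of the epithelial, mesothelial, leukocyte and mural cell markers that were bright in the same pool was not tested.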

How the results depend on the processing

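Col18a1 passed the thresholds under all 14 alternatives at both probe sets, with log2 fold changes from 1.21 to 1.43 at the brighter when an array was left out. The count of members higher was 2 in place of 1 with scaling to equal medians, with quantile normalization, with the replicate block and with the last 2 together, Col4a4 being the added gene, and 1 to 2 when an array was left out. The count of members lower was 0 under every alternative at the brightest probe sets, also when arrays were left out. The dimmer Lama5 probe set passed as lower without Cyc replicate 2, and at -1.82 with the replicate block and quantile normalization. With a filter at 100, Papln was not tested. Over the whole array, 152 probe sets were higher and 24 lower. Higher ones numbered 93 with a pseudocount of 50 and 47 with an unmoderated t-test, under which 644 of the 20680 tested probe sets had an unadjusted p under 0.05 and 0 an adjusted one. Lower ones numbered 46 with a pseudocount of 1, 37 without a filter, 47 with the replicate block, 49 with the block and quantile normalization, and 7 with the t-test. When an array was left out, higher ones ranged between 117 (Cyc replicate 2 left out) and 581 (Cyc replicate 1 left out), and lower ones between 29 and 1050 (Cyc replicate 2 left out). The median log2 fold change of the members then ran from 0.06 to 0.34. With the array kept, the sign of Itga6 turned, to -0.03 with quantile normalization, alone and with the block. These log2 fold changes changed sign when an array was left out, with the following ranges. They ran from -0.51 to 0.64 (Lama2), from -0.67 to 0.42 (Lama3), from -0.42 to 0.59 (Lama5), from -0.00 to 0.30 (Lamb2), from -0.19 to 0.38 (Lamc1), from -0.06 to 0.24 (Nid1). Others ran from -0.19 to 0.63 (Nid2), from -0.63 to 0.47 (Hspg2), from -0.21 to 0.06 (Tinagl1), from -0.22 to 0.42 (Npnt), from -3.83 to 0.40 (Lama5, dimmer probe set), from -0.07 to 1.12 (Lamb1, dimmest tested probe set). Others ran from -0.04 to 0.16 (Rpsa), from -0.16 to 0.22 (Itga6), from -0.62 to 0.40 (Utrn), from -0.08 to 0.21 (Serpinh1), from -0.01 to 0.25 (Adamts1), from -0.79 to 0.19 (Timp3). Others ran from -0.20 to 0.53 (Ntn1) and from -0.04 to 0.24 (Ecm1). Leaving out an array sets 1 experiment in a group against both in the other, and the cause of each change was not tested. The 95% interval reached past 2-fold in at least 1 direction for Lama2, Lama3, Lama5, Nid2, Hspg2, Agrn, Col4a4, Col4a5, Fbln1, Fbln2 and Bcam. With 2 pools per genotype a difference of that size was not excluded for these genes, and neither was none. The intervals of Col15a1 and Col18a1 also reached past 2-fold but lay above 0, from 0.07 to 1.49 and from 0.69 to 1.95.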
